A study of Mus musculus with 7 samples.

Results

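The hair keratins and keratin-associated proteins (KAPs) were followed through 7 mouse skin papillomas profiled by RNA-seq. The members were every gene symbol starting with *Krtap*, together with 17 named keratins of the hair shaft and the inner root sheath. This choice gave 68 of the 23284 symbols in the files, namely 52 *Krtap* genes and 16 keratins. *Krt72*, the remaining keratin, was not found under that symbol. The files list *Krt72-ps* instead, which was not counted as a member.

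Hair is made in the follicle by matrix cells that move up and keratinize along separate paths. The cells of the inner root sheath, which moulds the growing hair, make the type I keratins *Krt25*, *Krt27* and *Krt28* and the type II keratins *Krt71* and *Krt73*. The cells of the hair shaft make the hair keratins, type I (*Krt31* to *Krt35*) and type II (*Krt81* to *Krt86*), which assemble as pairs of both types into filaments. KAPs form the matrix between these filaments. Some KAP families are rich in cysteine and cross-link the filaments, and others are rich in glycine and tyrosine. These genes are active while a follicle is growing, and interfollicular epidermis is not known for making them. *Krt84* is an exception among them, since it is also known from the filiform papillae of the tongue.

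A separate library was sequenced for each of 4 CTR and 3 TG mice, all on a C57Bl/6 background. Both groups carried the *tetO-Nanog* allele, were 8 to 10 weeks old at the start and drank doxycycline (2 mg/ml) throughout a DMBA/TPA protocol, in which the mutagen DMBA starts tumors on shaved back skin and repeated TPA promotes them. TG mice also carried *K5-rtTA*, a transactivator driven by the keratin 5 promoter, which is active in basal keratinocytes of the epidermis and in the outer root sheath of the follicle. CTR mice lacked it, so that the groups shared the allele and the doxycycline but not the transactivator. Papillomas were collected when the protocol ended or earlier, if a mouse reached its humane endpoint. The labels do not say which held for each papilloma, so the time of collection may differ among them.

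Values are FPKM, sequenced fragments relative to the length of the transcript and the size of the library, as Cufflinks estimated them for each papilloma. The width of the Cufflinks interval gives the number of reads that an FPKM value implies, here called implied reads, and on that basis the libraries held about 10077008 to 15711400 reads on genes, with CTR 3 and TG 1 the deepest. *Nanog*, the check of the genotype, was 36.9, 57.4 and 66.9 FPKM in TG 1 to TG 3 and 2.70, 2.84, 12.7 and 3.34 FPKM in CTR 1 to CTR 4, with every TG papilloma above every CTR papilloma. TG 3 stood apart from the other papillomas over all genes. Its median FPKM was 1.04 against 0.481 to 0.596 elsewhere, and its correlations with the others on the log2(FPKM + 0.5) scale were 0.903 to 0.937 across genes, against 0.945 to 0.977 among the other pairs. Values are therefore given for each papilloma, and the main group differences also without TG 3.

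Apart from *Krt84*, the hair genes were present in quantity in a single papilloma, TG 3. The FPKM of the 67 members other than *Krt84* summed to 57.1 in TG 3, with 3.43 and 2.74 FPKM in TG 1 and TG 2. The sums in CTR 1 to CTR 4 were 1.61, 4.07, 1.29 and 2.52 FPKM. TG 3 thus held 14.04 times the sum of the next papilloma, CTR 2, and 7.92 to 18.6 times the next under 3 other scalings of the libraries, while the other TG papillomas lay within the range of the CTR papillomas. The same genes had 944 implied reads in TG 3, while the other papillomas had 22.1 to 77.2. With *Krt84* counted, the 68 members summed to 59.0 FPKM in TG 3 and to at most 8.08 FPKM elsewhere, in TG 1, a ratio of 7.30. In these bulk samples, more cells of a type and more RNA per cell cannot be told apart.

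**Figure D1:**
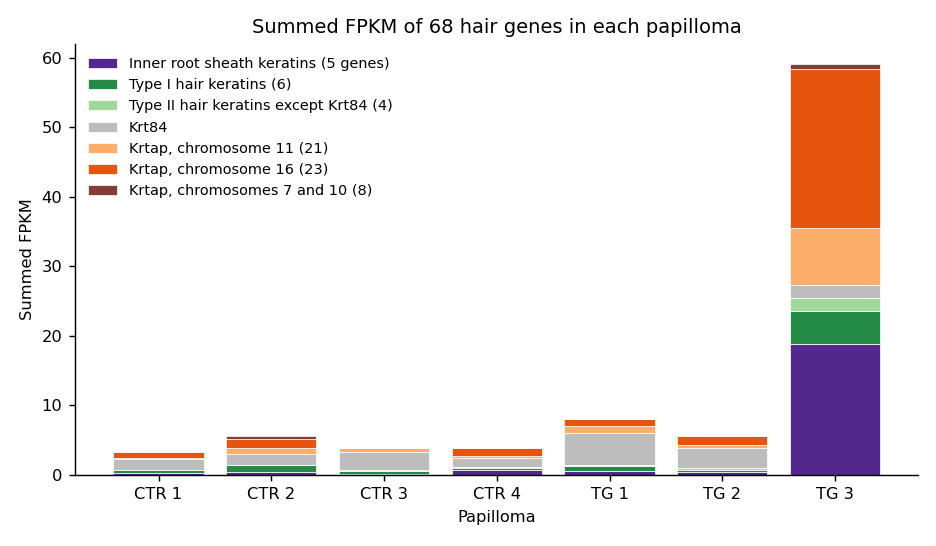
Stacked bars of the summed FPKM of the 68 members (vertical axis, linear) in each papilloma (horizontal axis), colored by class of gene; each bar is 1 papilloma and has no error bar. The bar of TG 3 reaches 59.0 FPKM, most of it from *Krtap* genes of chromosome 16 and inner root sheath keratins, whereas *Krt84* (grey) is the tallest segment in the other 6 papillomas.

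Counted gene by gene, 60 members were above 0 in at least 1 papilloma and 8 *Krtap* genes were listed at 0 in all 7. Of the 60, 53 had their highest value in TG 3, where 41.4% of all 19124 symbols above 0 also peaked. The share that peaked in TG 3 was 42.1% among symbols with a mean under 0.5 FPKM, the range in which most members lie. For 40 members at least 80% of the summed FPKM came from TG 3, a share reached by 3.35% of all symbols and by 8.16% of those with a mean under 0.5 FPKM. For 18 members, all of them *Krtap* genes, TG 3 was the only papilloma above 0. Some of these rest on less than 1 implied read there, such as *Krtap4-8* (0.0120) and *Krtap9-1* (0.0194). Shares over all symbols were not counted for this number or for the next, so neither is read as a trait of the hair genes. At least 1 implied read was found for 52 members in TG 3 and for 8 to 20 members in each of the others, with the fewest in the deep library CTR 3.

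The members' promoters carried a shared feature that the choice of genes did not use. RefSeq promoters (GRCm38.p6) at the loci of the files were found for 49 of the 68 members, and the 250 bases before each transcription start were searched on both strands for TATAAA, the core of the TATA box, and for CTTTGA, the core recognized by TCF/LEF factors. The 2 motifs cannot overlap each other. Many of the 49 members lie in clusters of related genes, so their promoters are not independent of each other. They were compared with all promoters only, and not with those of other keratin genes. TATAAA was present in 43 of 49 members (87.8%) and in 12.4% of 32851 promoters of the same length. On the coding strand from 50 to 21 bases before the start, a window chosen after the list had been fixed, it was present in 36 of 49 members (73.5%) against 2.19% of all promoters. CTTTGA was present in 13 of 49 members (26.5%) and in 13.8% of all promoters. By class it was in 5 of 10 keratins (50%) and in 8 of 39 *Krtap* genes (20.5%). The keratins with it were *Krt28*, *Krt31*, *Krt32*, *Krt33b* and *Krt34*, all on chromosome 11. The 100 bases before the start are shown for 3 inner root sheath keratins and a *Krtap* gene among the strongest signals of TG 3, and for a further *Krtap* gene and *Krt84* in which this stretch lacks TATAAA. They are written 5′ to 3′ on the coding strand, with TATAAA in capitals. Other forms of the TATA box were not searched, so a stretch that lacks TATAAA may still hold one.
Krt25 (chr11:99322952-99323051, minus strand): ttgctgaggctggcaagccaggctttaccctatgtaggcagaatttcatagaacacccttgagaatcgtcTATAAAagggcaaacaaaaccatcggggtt
Krt27 (chr11:99351119-99351218, minus strand): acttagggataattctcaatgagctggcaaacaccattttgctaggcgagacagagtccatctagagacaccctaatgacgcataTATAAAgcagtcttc
Krt71 (chr15:101743098-101743197, minus strand): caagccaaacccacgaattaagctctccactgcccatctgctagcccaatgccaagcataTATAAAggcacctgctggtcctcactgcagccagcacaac
Krtap8-1 (chr16:89487953-89488052, minus strand): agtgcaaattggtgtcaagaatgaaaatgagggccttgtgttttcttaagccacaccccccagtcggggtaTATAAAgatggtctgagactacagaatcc
Krtap15 (chr16:88828909-88829008, plus strand): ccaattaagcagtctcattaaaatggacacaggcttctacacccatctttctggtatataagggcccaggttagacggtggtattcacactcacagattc
Krt84 (chr15:101532821-101532920, minus strand): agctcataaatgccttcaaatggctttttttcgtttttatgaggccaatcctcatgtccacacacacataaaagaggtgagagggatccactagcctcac
A match to these letters is a description of the sequence, and no factor binding was measured.

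The inner root sheath keratins gave the highest ratio among the keratin classes. Their 5 genes summed to 18.8 FPKM in TG 3, from 479 implied reads, with 0.513 and 0.395 FPKM in TG 1 and TG 2. In CTR 1 to CTR 4 the sums were 0.253, 0.433, 0.161 and 0.680 FPKM, so that TG 3 exceeded the next papilloma 27.7-fold, and 19.8-fold to 41.0-fold under 3 other scalings of the libraries. *Krt71*, the type II keratin of the sheath's Henle and Huxley layers and its cuticle (chr15:101733949-101743097, GRCm38), was the highest member in TG 3. It reached 7.002 FPKM there, with a Cufflinks 95% interval of 6.05 to 7.95 that covers the error of that library only. In TG 1 and TG 2 it was 0.0201 and 0.0911 FPKM, and in CTR 1 to CTR 4 it was 0, 0.0580, 0.0778 and 0.0324 FPKM. The other papillomas thus had at most 4 implied reads of *Krt71*, against 216 in TG 3.

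*Krt25* and *Krt27*, type I partners in the sheath, followed at lower levels. *Krt25* was 4.45 FPKM in TG 3, with 0.246 and 0.0477 FPKM in TG 1 and TG 2, and in CTR 1 to CTR 4 it was 0.0330, 0.000178, 0.000582 and 0.0458 FPKM. Every TG papilloma lay above every CTR papilloma, but TG 2 (0.529 implied reads) and CTR 4 (0.977) both rested on less than 1 read. *Krt27* was 4.15 FPKM in TG 3, with 0.1955 and 0 FPKM in TG 1 and TG 2, and its CTR values reached 0.365 in CTR 4, so that its groups overlapped. *Krt28* (1.76 FPKM) and *Krt73* (1.47 FPKM) were also highest in TG 3, and neither exceeded 0.207 FPKM elsewhere. *Krt26*, a further keratin of the sheath that was not a member, had 22 implied reads (0.517 FPKM) in TG 3 and less than 1 in each of the others. *Krt72-ps* had 27.7 implied reads in TG 3 and at most 1 elsewhere.

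**Figure D2:**
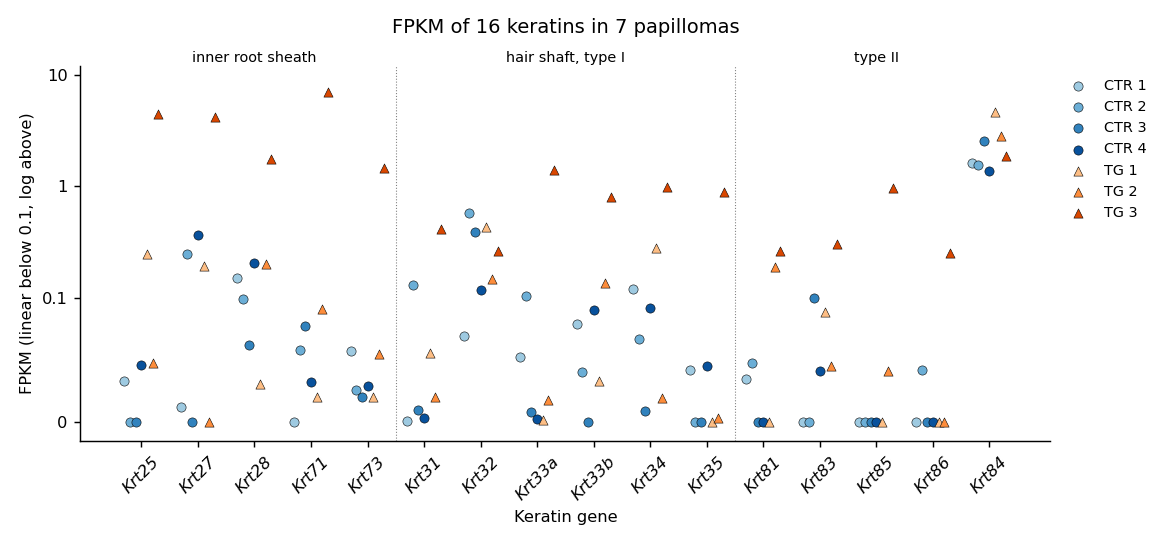
FPKM of the 16 keratins (vertical axis, linear below 0.1 and logarithmic above) in the 4 CTR papillomas (blue circles) and the 3 TG papillomas (orange triangles); each point is 1 papilloma. TG 3, the darkest triangle, is the highest point for 14 of the 16 keratins, whereas *Krt84* lies above 1 FPKM in all 7 papillomas and *Krt32* shows no separate TG 3 point.

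The type I hair keratins were also highest in TG 3, with a smaller distance to the rest. Their 6 genes summed to 4.75 FPKM in TG 3, with 0.804 and 0.344 FPKM in TG 1 and TG 2, and in CTR 1 to CTR 4 to 0.364, 0.916, 0.420 and 0.352 FPKM. The ratio of TG 3 to the next papilloma, CTR 2, was 5.19, and 2.52 after quantile normalization. *Krt33a*, a keratin of the hair cortex, was 1.40 FPKM in TG 3 and at most 0.105 in the others. *Krt34*, also of the cortex, was 0.989 FPKM in TG 3 and 0.283 in TG 1, and *Krt35*, which appears early in the matrix and lower cortex, was 0.888 FPKM in TG 3 and at most 0.0451 elsewhere. *Krt33b* reached 0.795 and *Krt31* 0.416 FPKM in TG 3.

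*Krt32*, a keratin of the hair cuticle, went another way. It was 0.0692, 0.573, 0.393 and 0.118 FPKM in CTR 1 to CTR 4, and 0.430, 0.147 and 0.264 FPKM in TG 1 to TG 3. CTR 2, CTR 3 and TG 1 each had 16 or 17 implied reads of it and TG 3 had 7, so that TG 3 lay in the middle of the 7 papillomas.

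Among the type II hair keratins other than *Krt84*, *Krt85* led in TG 3. *Krt85*, which marks the early hair matrix and cortex, was 0.968 FPKM in TG 3 (24.3 implied reads), 0.0410 in TG 2 and at or near 0 in the other 5. *Krt83*, *Krt81* and *Krt86* were 0.304, 0.267 and 0.254 FPKM in TG 3. Without *Krt84*, the 4 genes summed to 1.79 FPKM in TG 3 and to 0.277 in TG 2, and to between 0.0346 and 0.1001 in the other 5. With *Krt84* the type II class summed to 3.65 FPKM in TG 3, below the 4.74 FPKM of TG 1. The locus given for *Krt85* (chr15:101431014-101491303) spans *Krt81*, *Krt83* and *Krt86*, and 39.1% of the stretches of 40 bases in the *Krt86* transcript, the read length, also occur in *Krt81*, so the division of reads among these 4 genes is uncertain. The type I genes *Krt31*, *Krt33a*, *Krt33b* and *Krt34* share between 23.4% and 37.6% of such stretches with other members. The place of *Krt83* in the files (chr15:101431490-101438804) is not that of the gene of this symbol in GENCODE vM21. *Krt71* shares 1.82% with other members, and *Krt84* shares none. Only exact matches among members were counted, while the alignment allowed 2 mismatches and 5 hits. Keratins outside the members were not compared, so reads shared with them are not covered.

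*Krt84* was the one member found at 1 FPKM or more in every papilloma. It was 1.61, 1.54, 2.55 and 1.37 FPKM in CTR 1 to CTR 4, a mean of 1.77 ± 0.532 (SD, n = 4), from 60.2 to 176 implied reads. In TG 1 to TG 3 it was 4.65, 2.80 and 1.86 FPKM, a mean of 3.10 ± 1.42 (SD, n = 3). TG 1 and TG 2 lay above all CTR papillomas, while TG 3, in which most other hair genes peaked, was the lowest of the TG papillomas and below CTR 3. The difference in means was 0.62 on the log2(FPKM + 0.5) scale with a standard error of 0.30 (2-sided exact permutation test over 35 splits, p = 0.114; limma adjusted p = 0.775). Without TG 3 it was 0.89, with a 2-sided exact permutation test that cannot go below 0.0667. In the same fit without TG 3 the limma p-value of *Krt84* was 0.0104 before and 0.288 after adjustment.

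The *Krtap* genes summed to 31.7 FPKM in TG 3, with 2.02 and 1.72 FPKM in TG 1 and TG 2. In CTR 1 to CTR 4 the sums were 0.957, 2.63, 0.612 and 1.45 FPKM, so that the ratio of TG 3 to the next papilloma, CTR 2, was 12.1, and 6.57 to 16.03 under the other scalings. Most of the signal came from the cluster on chromosome 16 (23 genes between 88610709 and 89571183, GRCm38), with 22.95 FPKM and 224 implied reads in TG 3. The same cluster had 9, 13, 0 and 12 implied reads in CTR 1 to CTR 4 and 13.5 and 14 in TG 1 and TG 2. CTR 3, although it held 15623173 implied reads in all, had none from these 23 genes. The cluster on chromosome 11 (21 genes) summed to 8.17 FPKM in TG 3 and to between 0.0977 and 1.01 FPKM elsewhere. The 5 *Krtap5* genes of chromosome 7 were above 0 in TG 3 only, with 5.28 implied reads in all, and the 3 genes of chromosome 10 had less than 1 implied read there.

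By family, the 15 genes of the high glycine-tyrosine families (*Krtap6*, *Krtap7*, *Krtap8*, *Krtap16*, *Krtap20* and *Krtap22*) summed to 17.5 FPKM in TG 3 and to at most 0.819 elsewhere. The other 37 genes, of cysteine-rich and related families, summed to 14.2 FPKM in TG 3 and to at most 2.05 elsewhere. *Krtap7-1* and *Krtap8-1*, both of the glycine-tyrosine type, were the highest. *Krtap7-1* was 4.62 FPKM in TG 3 and 0.223 in TG 2, 0 in TG 1, and 0, 0.114, 0 and 0.233 FPKM in CTR 1 to CTR 4. *Krtap8-1* was 4.40 FPKM in TG 3, with 0.155 and 0.410 FPKM in TG 1 and TG 2, and 0.202, 0.325, 0 and 0.320 FPKM in CTR 1 to CTR 4. The values between 0 and 0.5 FPKM rest on 1 to 4 implied reads each, and TG 3 on 39 for *Krtap7-1* and 40 for *Krtap8-1*.

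A further 9 *Krtap* genes reached 1 FPKM in TG 3 and in no other papilloma. *Krtap22-2* (2.10 FPKM) and *Krtap15* (2.07 FPKM) led them, followed by *Krtap14*, *Krtap16-8*, *Krtap1-5*, *Krtap3-1*, *Krtap8-2*, *Krtap6-1* and *Krtap11-1* between 1.01 and 1.44 FPKM. *Krtap16-8* was listed at 0 in the other 6 papillomas, and the highest value of the rest outside TG 3 was 0.391 FPKM, of *Krtap15* in CTR 2. The exceptions were few. *Krtap12-1* was highest in CTR 2, *Krtap13*, *Krtap16-1* and *Krtap17-1* in TG 1 and *Krtap31-1* in CTR 4, the highest of them in FPKM being *Krtap12-1* (0.515 FPKM, 3.62 implied reads). They are named because they go against the rest, and were chosen after their values had been seen.

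**Figure D3:**
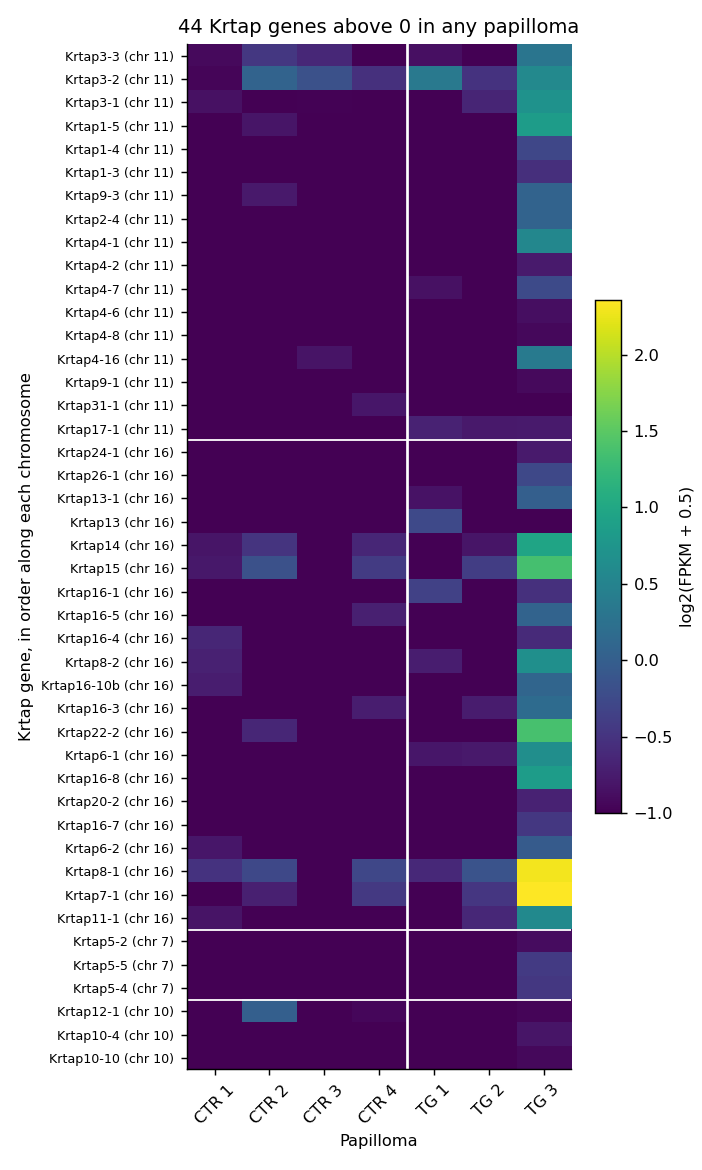
Heat map of log2(FPKM + 0.5) for the 44 *Krtap* genes above 0 in any papilloma (rows, in order along chromosomes 11, 16, 7 and 10) in the 7 papillomas (columns, with a white line between CTR and TG); the darkest color stands for 0 FPKM. The TG 3 column is bright along the clusters of chromosomes 11 and 16, with the brightest cells at *Krtap8-1* and *Krtap7-1*, while the CTR 3 column is dark throughout chromosome 16.

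The comparison that the design implies, TG against CTR, called no hair gene. The limma fit covered 12299 symbols with a mean of at least 0.5 FPKM. In it, 0 symbols (0.0%) passed an adjusted p of 0.05 upward and 0 (0.0%) downward, so that no member did. The fit did not call *Nanog* either (log2 difference 3.45, limma adjusted p = 0.4), so the absence of calls does not show unchanged hair genes. Before adjustment, 598 symbols (4.86%) were higher and 241 (1.96%) lower in TG papillomas, with 0 members among them. The split of 598 to 241 became 391 to 562 after quantile normalization and 201 to 129 relative to *Krt5* plus *Krt14*. Only 6 members passed the filter, and *Krt25*, *Krt27*, *Krt71*, *Krtap7-1* and *Krtap8-1* did so through TG 3 alone. For *Krt71* the log2 difference was 1.29 with a standard error of 0.82 (adjusted p = 0.839; p = 0.171 by 2-sided exact permutation), against 0.035 without TG 3. For *Krt25* it was 1.28 with a standard error of 0.67 (adjusted p = 0.810), and 0.30 without TG 3. Pooled over the group, the mean of *Krt71* in TG was 2.37 ± 4.01 FPKM (SD, n = 3), an SD above the mean that 1 papilloma set. *Krt71* is nevertheless among the genes that the study's own test within Cufflinks listed as higher in TG papillomas.

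By the order of the papillomas alone, 3 members had every TG value above every CTR value, *Krt25*, *Krtap6-1* and *Krtap17-1*, and 0 had every TG value below. These are 3 of the 60 members above 0, where the order held for 5.0% of all 19124 symbols in the first direction and for 1.69% in the second. All 3 reached p = 0.0286 in the 2-sided exact permutation test, the smallest that 35 splits allow. *Krtap6-1* and *Krtap17-1* had 1 or 2 implied reads in TG 1 and TG 2 and less than 1 in every CTR papilloma. No member was called in any of 20 alternative settings, in which the smallest adjusted p of a member was 0.176. In 7 of them 1 or 2 members had an unadjusted p under 0.05, all higher in TG. These were *Krtap16-1* and *Krtap17-1* without a filter, *Krt25* relative to *Krt5* plus *Krt14* and without TG 2, *Krt84* with quality weights, without CTR 3 and without TG 3, and *Krtap7-1* and *Krtap8-1* without TG 1. The smallest was that of *Krtap17-1*, with an unadjusted 0.0001075 and an adjusted p = 0.413 by limma.

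Other genes of the hair pathway were read from lists. Among 7 other follicle keratins, only *Krt75*, a keratin of the companion layer and upper follicle, had a mean above 0.5 FPKM. *Krt75* was 0.665, 0.804, 2.20 and 1.45 FPKM in CTR 1 to CTR 4 and 3.13, 4.45 and 3.60 FPKM in TG 1 to TG 3. Every TG papilloma lay above every CTR papilloma, without a peak in TG 3. The log2 difference was 1.32 with a standard error of 0.31 (limma p = 0.00213, adjusted p = 0.558; 2-sided exact permutation test, p = 0.0571), against 1.33 without TG 3. *Krt36*, a hair keratin also known from nail and tongue, lay between 0.0414 and 0.431 FPKM with TG 3 (0.266) in the middle.

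Among 14 structural genes of the follicle, 8 were highest in TG 3, against the 41.4% of all symbols. *Tchh*, trichohyalin, the protein that hardens the inner root sheath, was 4.15 FPKM in TG 3, 1.26 and 2.11 in TG 1 and TG 2, and 2.24, 1.16, 1.79 and 1.95 FPKM in CTR 1 to CTR 4. *Padi3*, the enzyme that modifies trichohyalin, was 12.6 FPKM in TG 3 and 7.15 in TG 1, but also 6.92 in CTR 4. *Dsg4*, the desmosomal cadherin of the hair shaft, had 20 implied reads in TG 3 and 1 to 7 elsewhere, and *Crym* had 10 in TG 3 and 1 in the others together. *Gprc5d* (0.573 FPKM) and *Crisp1* (6.78 FPKM) were also highest in TG 3. *S100a3*, of the hair cuticle, was 4.03 FPKM in TG 3 and 4.15 in CTR 3, and *Mt4* and *Selenbp1* were lowest in TG 3. *Tgm3* was 342 FPKM in TG 3 and 846 in TG 1, and *Tchhl1* was 0.412 in TG 3 and 1.66 in TG 1. *Hephl1* was 0.595 FPKM in TG 3 and 3.53 in TG 2.

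Of 12 regulators of the follicle, 4 were highest in TG 3. *Hoxc13*, which drives hair keratin genes, was 0.973 FPKM in TG 3 but 1.14 in TG 2 and 0.813 in CTR 4. It was 0.494 FPKM in TG 1 and 0, 0.105 and 0.148 FPKM in CTR 1 to CTR 3 (log2 difference 0.91, standard error 0.38, limma p = 0.0387, adjusted p = 0.716; 2-sided exact permutation test, p = 0.0857). The difference was 0.84 in the absence of TG 3. *Foxn1*, required for hair keratinization, lay between 3.12 and 6.73 FPKM with TG 3 at 5.22. *Lef1* was at most 0.275 FPKM, reached in TG 3, and *Shh*, made by the matrix of growing follicles, had 1 implied read in TG 3 and was listed at 0 elsewhere. *Foxq1*, a gene of hair medulla differentiation, was 12, 14, 11.3 and 8.65 FPKM in CTR 1 to CTR 4 and 4.07, 6.73 and 7.99 FPKM in TG 1 to TG 3 (log2 difference -0.85, standard error 0.25, adjusted p = 0.607; 2-sided exact permutation test, p = 0.0571), against -1.04 without TG 3.

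**Figure D4:**
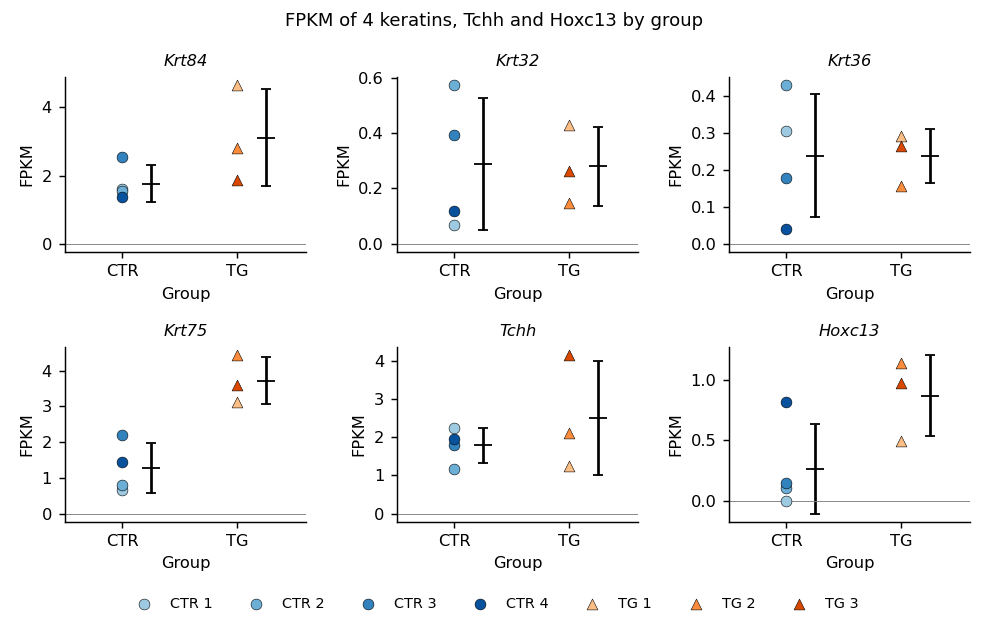
FPKM (vertical axes, linear, a separate scale for each gene) of *Krt84*, *Krt32*, *Krt36*, *Krt75*, *Tchh* and *Hoxc13* in the 4 CTR (circles) and 3 TG papillomas (triangles), with the group mean and SD beside the points. TG 3 is the highest point for *Tchh* only, and the 3 TG points of *Krt75* all lie above the 4 CTR points.

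The RNA of other tissues moved with the hair genes in TG 3. The 8 skeletal muscle markers summed to 548 FPKM in TG 3 and to between 1.72 and 4.43 FPKM elsewhere, all 8 of them highest in TG 3. *Acta1*, skeletal muscle actin, was 251 FPKM in TG 3, 1.41 in TG 2 and at most 0.409 in the others. The 5 adipocyte markers other than *Fabp4* summed to 31.9 FPKM in TG 3 and to between 0 and 0.0484 FPKM elsewhere, with *Plin1* and *Cidec* listed at 0 in the other 6 papillomas. *Fabp4*, which was 1374 FPKM or more in all 7 papillomas, did not follow them. The 6 fibroblast markers, collagens among them, summed to 678 FPKM in TG 3 and to between 73.5 and 129 FPKM elsewhere, and the 3 endothelial markers to 18.7 against 4.42 to 10.9 FPKM.

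Among the other skin lists, sebaceous gland and dermal papilla markers summed higher in TG 3, while melanocyte and epidermal markers did not. The 7 sebaceous gland markers summed to 82.8 FPKM in TG 3 and to between 8.43 and 15.4 FPKM elsewhere, and 6 of the 7 were highest in TG 3. *Krt79*, of the sebaceous duct and upper follicle, was 36.3 FPKM in TG 3 and at most 8.36 in the others. *Scd1* made 41.6 FPKM of the sum in TG 3, and *Scd3* was highest in CTR 3. The 5 dermal papilla markers summed to 28.7 FPKM in TG 3, of which *Crabp1* made 27.8, and to between 4.43 and 18.3 FPKM elsewhere. The 7 melanocyte markers did not peak in TG 3, with a sum of 4.54 FPKM within the range of 1.67 to 7.35 FPKM of the others. The 10 epidermal keratinocyte markers found summed to 24568 FPKM in TG 3, below the 30583 to 47999 FPKM of the others. *Krt10*, of the suprabasal epidermis, was 181 FPKM in TG 3 against 917 to 3150 FPKM, while *Krt5*, of the basal layer, was 1783 FPKM in TG 3 against 942 to 1777 FPKM. Their part in the hair gene values was not tested.

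None of the other lists had a gene called at an adjusted p under 0.05 by limma, and the smallest adjusted p was 0.538, of *Ivl*. The study's own test within Cufflinks did list genes of these lists as higher in TG papillomas, namely all 8 muscle markers, *Ivl* and *Liph*. At an unadjusted p under 0.05, *Krt75*, *Hephl1*, *Liph*, *Padi3*, *Hoxc13*, *Scd1*, *Ivl*, *Pdgfra* and *Pecam1* were higher in TG, and *Mt4* and *Foxq1* lower. Leaving out TG 3 took the log2 difference from 1.29 to 0.54 for *Scd1*, from 1.03 to 0.40 for *Pdgfra*, from 0.86 to 0.56 for *Pecam1*, from 0.72 to 0.39 for *Liph* and from 1.75 to 1.27 for *Padi3*. It took *Ivl* from 2.01 to 2.62, *Hephl1* from 1.16 to 1.61 and *Mt4* from -1.96 to -1.57. The median log2 difference of the tested genes was 0.30 for the 11 follicle structural genes, 0.27 for the 8 regulators, 0.48 for the 5 melanocyte markers, 0.09 for the 3 sebaceous and 0.08 for the 10 epidermal markers, beside 0.06 over all 12299. It was 2.28 for the 7 muscle markers, 0.78 for 2 adipocyte, 0.87 for the 6 fibroblast and 0.67 for the 3 endothelial markers, and the single dermal papilla marker tested, *Crabp1*, had 0.70. For the same genes without TG 3 the medians were -0.07 for the follicle structural genes, 0.18 for the regulators, 0.78 for the melanocyte markers, -0.03 for the sebaceous and 0.37 for the epidermal markers, beside -0.03 over all 12299. They were 0.17 for muscle, -0.15 for adipocyte, -0.09 for fibroblast and 0.26 for endothelial markers, and 0.31 for *Crabp1*.

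**Figure D5:**
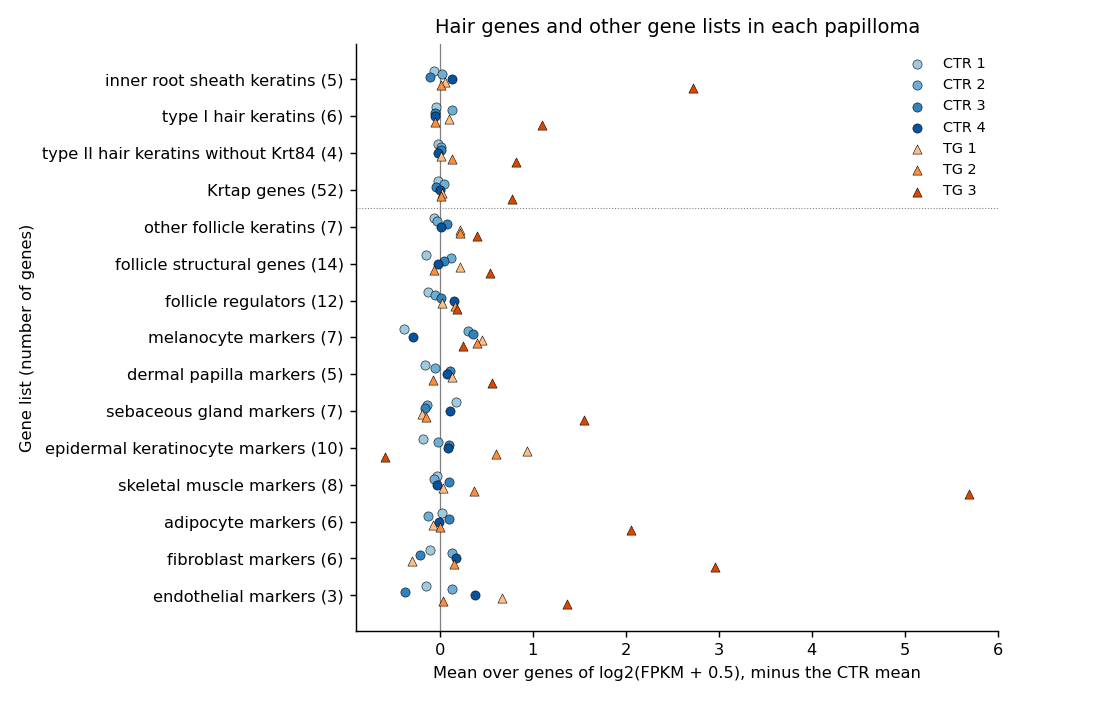
Mean over the genes of each list of log2(FPKM + 0.5), minus the mean of the CTR papillomas (horizontal axis), for the hair gene classes above the dotted line and other lists below it; each point is 1 papilloma (circles CTR, triangles TG) and the number of genes is in parentheses. The TG 3 point lies to the right of the other 6 for the 4 hair classes, which leave out *Krt84*, at 2.73 for the inner root sheath keratins. It also does so for muscle (5.70), fibroblast (2.96), adipocyte (2.06) and sebaceous (1.55) markers, but lies to their left for epidermal keratinocyte markers (-0.58).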

How the data were processed

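The authors sequenced polyA+ RNA of 4 CTR and 3 TG papillomas in stranded libraries (single reads of 40 bases), aligned them to GRCm38/mm10 with TopHat 2.0.4, allowing 5 hits for each read, and ran Cufflinks 1.3.0 on each library. They deposited FPKM values with an interval and a status. Groups were taken from the labels. Entries of a symbol were summed, and 162 symbols with a failed estimate were left out. Implied reads are (2 × FPKM / (upper limit − FPKM)) squared; 65.2% to 67.0% of values under 50 came out whole within 0.02, so depths are approximate, and intervals cover counting error only. TG and CTR were compared with limma 3.58.1 (R 4.3.3) on log2(FPKM + 0.5), which understates changes of low genes, for symbols with a mean of at least 0.5 FPKM, with variances moderated along a trend, Benjamini-Hochberg adjustment and 2-sided tests, and single genes by exact permutation over 35 splits. The study's own test within Cufflinks needs aligned reads and was not repeated. The fit was tested on simulated data. Members, lists and tests were chosen with earlier results of these data known. Named were all member keratins, *Krtap* genes with a mean of 0.5 FPKM or with 1 FPKM in a papilloma, and up to 4 genes of each other list with the smallest limma p, besides defining markers and *Nanog*. The lists held 7 other follicle keratins, 14 follicle structural genes, 12 regulators, and markers of melanocytes, dermal papilla, sebaceous gland, epidermis, muscle, fat, fibroblasts and endothelium. *Flg* was not found. Some list genes, such as *Tchh* and *Dsg4*, are given in the text although the naming rule did not select them. The 20 alternatives changed the pseudocount, filter, scaling, trend, weights, block, summing or libraries. Amino acid sequences were not used here.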

Additional observations from a re-analysis of the deposited data

Results flagged for a closer look

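Of 75 values or sums examined in the 4 CTR papillomas, 14 had 1 papilloma far from the other 3 (Dixon's test of the gap against the range, at the 95% level). Chance gives about 1 in 20. CTR 2 stood out upward for the summed type I hair keratins (0.916 FPKM, against 0.420 in the next), for *Krt31* (0.131 FPKM), *Krt86* (0.0421 FPKM), *Krtap1-5* (0.0694 FPKM) and *Krtap22-2* (0.142 FPKM), and for the summed *Krtap* genes of chromosome 10 (0.515 FPKM). CTR 1 stood out for *Krtap3-1* (0.0535 FPKM), *Krtap8-2* (0.121 FPKM) and *Krtap11-1* (0.0666 FPKM).

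Outside the hair genes, CTR 3 stood out for *Nanog* (12.7 FPKM, against 3.34 in the next), *Acta1* (0.409 FPKM) and *Cfd* (0.0484 FPKM), and CTR 1 for *Liph* (3.32 FPKM) and *Tnnc2* (0.0832 FPKM). The values of *Krt86*, *Krtap1-5*, *Krtap22-2*, *Krtap8-2*, *Krtap11-1*, *Tnnc2* and *Cfd* rest on 1 implied read each beside 3 papillomas at 0, where the gap is the whole range by construction, so that the share chance gives does not apply to them. The value of *Krtap3-1* in CTR 1 rests on still less, 0.180 implied reads. The chromosome 10 sum of CTR 2 comes from *Krtap12-1* alone (3.62 implied reads). Groups of 3 were not examined in this way, so the TG papillomas are not among the values flagged.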

How the results depend on the processing

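No hair gene was called under any of the 20 alternatives. Over all genes, counts at an adjusted p under 0.05 were 1 higher (*Nanog*) and 1 lower (*Rbp7*) relative to *Krt5* plus *Krt14*, 49 higher and 36 lower with quality weights, and 1 higher (*Nanog*) in the lower-depth libraries alone. With each papilloma left out in turn they ran from 0 to 9 higher and from 0 to 8 lower. Without TG 3 there were 9 higher and 8 lower, without TG 1 there were 2 higher and without CTR 3 there was 1. Genes of the other lists called higher numbered 2 with quality weights (*Ivl*, *Hephl1*) and 0 to 1 when a papilloma was left out (*Ivl*, without TG 3). Unadjusted counts higher and lower were 954 higher with no filter, 1161 and 1248 with quality weights, 364 and 134 without CTR 3, 121 lower without TG 2 and 522 lower without TG 3. The cause was not tested.

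Replicate numbers did not pair the papillomas. Deviations of same-numbered papillomas correlated at -0.186, 0.0431 and -0.146, and each of the 3 TG papillomas correlated best with another number. With the replicate block 0 genes and 0 hair genes were called in either direction.

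*Krt32* turned from 0.02 to -0.0056 (upper quartile), -0.12 (quantile), -0.0072 (*Krt5* plus *Krt14*), -0.082 (block) and -0.040 (lower-depth libraries). *Scd3* turned to -0.11 (quantile), and *Krt79* from -0.02 to 0.068 (pseudocount 1), 0.27 (block) and 0.37 (lower-depth libraries). Of 432 values of named hair genes under alternatives, 395 kept direction and side of the threshold. Most of these genes had an exact p above 0.05 to begin with. With a papilloma left out, in the lower-depth libraries or with the block, the exact test cannot go below 0.05. The side was therefore largely fixed in advance, and the count is no measure of robustness. With a papilloma left out, log2 differences ranged from -0.11 to 1.495 for *Krt27*, -0.039 to 1.01 for *Krt28*, -0.12 to 0.18 for *Krt32*, -0.083 to 0.88 for *Krt33a*, -0.056 to 0.68 for *Krt35*, -0.029 to 0.27 for *Krt86*, -0.047 to 0.88 for *Krtap1-5*, -0.17 to 0.81 for *Krtap14*, -0.11 to 1.07 for *Krtap15* and -0.090 to 1.10 for *Krtap22-2*, the lowest in each case without TG 3, except *Krt32* (without CTR 1). The ranges were -0.11 to 0.27 for *Scd3*, -1.49 to 0.84 for *Krt79*, -0.072 to 2.25 for *Krt1*, -0.89 to 0.041 for *Lor*, -0.033 to 2.83 for *Cfd*, -0.065 to 1.295 for *Col1a2* and -0.11 to 1.51 for *Col3a1*. Exact tests without a papilloma cannot go below 0.0667 or 0.1. Members at 1 to 4 implied reads could not be ordered at this depth.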

Other observations

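Further keratins outside the members, those of simple epithelia among them, were also highest in TG 3, where 41.4% of all symbols above 0 peaked. They were read after their values had been seen. *Krt8* was 8.27 FPKM there and 0.672 FPKM or less elsewhere, *Krt18* was 23.3 against at most 7.16 FPKM, and *Krt19* was 9.72 against at most 1.596 FPKM. *Krt77* was 8.35 FPKM in TG 3 and at most 2.79 elsewhere. *Krt15*, of basal and bulge keratinocytes, was 49.98 FPKM in TG 3 and between 8.66 and 28.1 FPKM in the others. *Krt7* was 2.75 FPKM in TG 3 and at most 1.56 elsewhere.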
